A study of Homo sapiens with 42 samples.

Results

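This account covers 65 genes of DNA repair and of the replication fork in pancreatic cancer cells treated with statins. They are the genes in an expression table of 8738 genes whose symbols belong to the FANC, RAD, BRCA, XRCC, ERCC, RFC, RPA, MSH, MLH, POLD, POLE, POLH, POLQ, LIG, PARP and CHEK names, with EXO1 and BLM. The choice used symbols only and was made with earlier results of these data known. It took in a few genes with other main roles, such as ERCC6L and RAD21. The libraries were poly-A RNA-seq of 2 established human pancreatic cancer lines, MiaPaCa-2 and PANC-1. Each line was grown with fluvastatin, lovastatin or simvastatin at 20 µM, with the same statins at 2 µM, or without a statin as the control. Statins inhibit HMG-CoA reductase, the enzyme that makes mevalonate. The labels give 3 libraries to each of the 14 groups, and they state neither the length of treatment nor what the control cells received.

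Cells copy DNA at forks, where polymerases, a sliding clamp and the RFC proteins that load it, and the RPA proteins that coat single strands work together. When a fork meets damage, the Fanconi anemia complex, homologous recombination, translesion polymerases and checkpoint kinases keep it from collapsing. Mismatch repair, nucleotide excision repair and end joining mend other lesions, and many fork and recombination genes are transcribed mainly in cells that are preparing to divide.

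Levels are in FPKM, fragments scaled to transcript length and library, and changes are differences of log2(FPKM + 1). A gene was called when its limma p, adjusted by the Benjamini-Hochberg method over all genes tested, was under 0.05. Changes are given with their standard error (SE), and means with their SD. On this scale the change of a gene near or under 1 FPKM is understated. Read depth per library is unknown. The column of MiaPaCa-2 control replicate 3 and that of MiaPaCa-2 lovastatin 20 µM replicate 3 were weighted sums of other columns and were left out, so these groups had n = 2 and all others n = 3. Whether replicates come from separate cultures is not stated, so a p-value here reflects the spread among these libraries alone, which may be technical. All 65 genes passed the expression filter in both lines. Of 8 epithelial and pancreatic cancer markers, 7 were in the table. In untreated MiaPaCa-2 cells EPCAM and CDH1, which define epithelia, averaged only 0.273 and 0.927 FPKM, while in untreated PANC-1 cells they averaged 53.4 and 41 FPKM. Keratins KRT8, KRT18 and KRT19 averaged 135 to 556 FPKM in untreated MiaPaCa-2 cells and 290 to 607 FPKM in untreated PANC-1 cells.

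At 20 µM, most of these genes fell in both lines. Over the mean of the 3 statins, 46 of 65 fell and 8 rose in MiaPaCa-2, where 67.8% of all genes tested were called in either direction and 33.7% were called lower. In PANC-1, 46 fell and 8 rose, where 61.9% of all genes were called and 31.1% were called lower. The median log2 change of the 65 genes was -0.95 in MiaPaCa-2 and -0.78 in PANC-1, while the median over all genes was 0.02 in MiaPaCa-2 and -0.01 in PANC-1. In MiaPaCa-2, 44 genes had every 20 µM library below every control library, as did 26.7% of all genes. Every 20 µM library lay above for 4 genes, against 24.9% of all genes. In PANC-1 the counts were 36 below, against 15.6% of all genes, and 6 above, against 16.6%. These are bulk samples, in which fewer cells using a gene and less of its RNA per cell cannot be told apart.

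**Figure D1:**
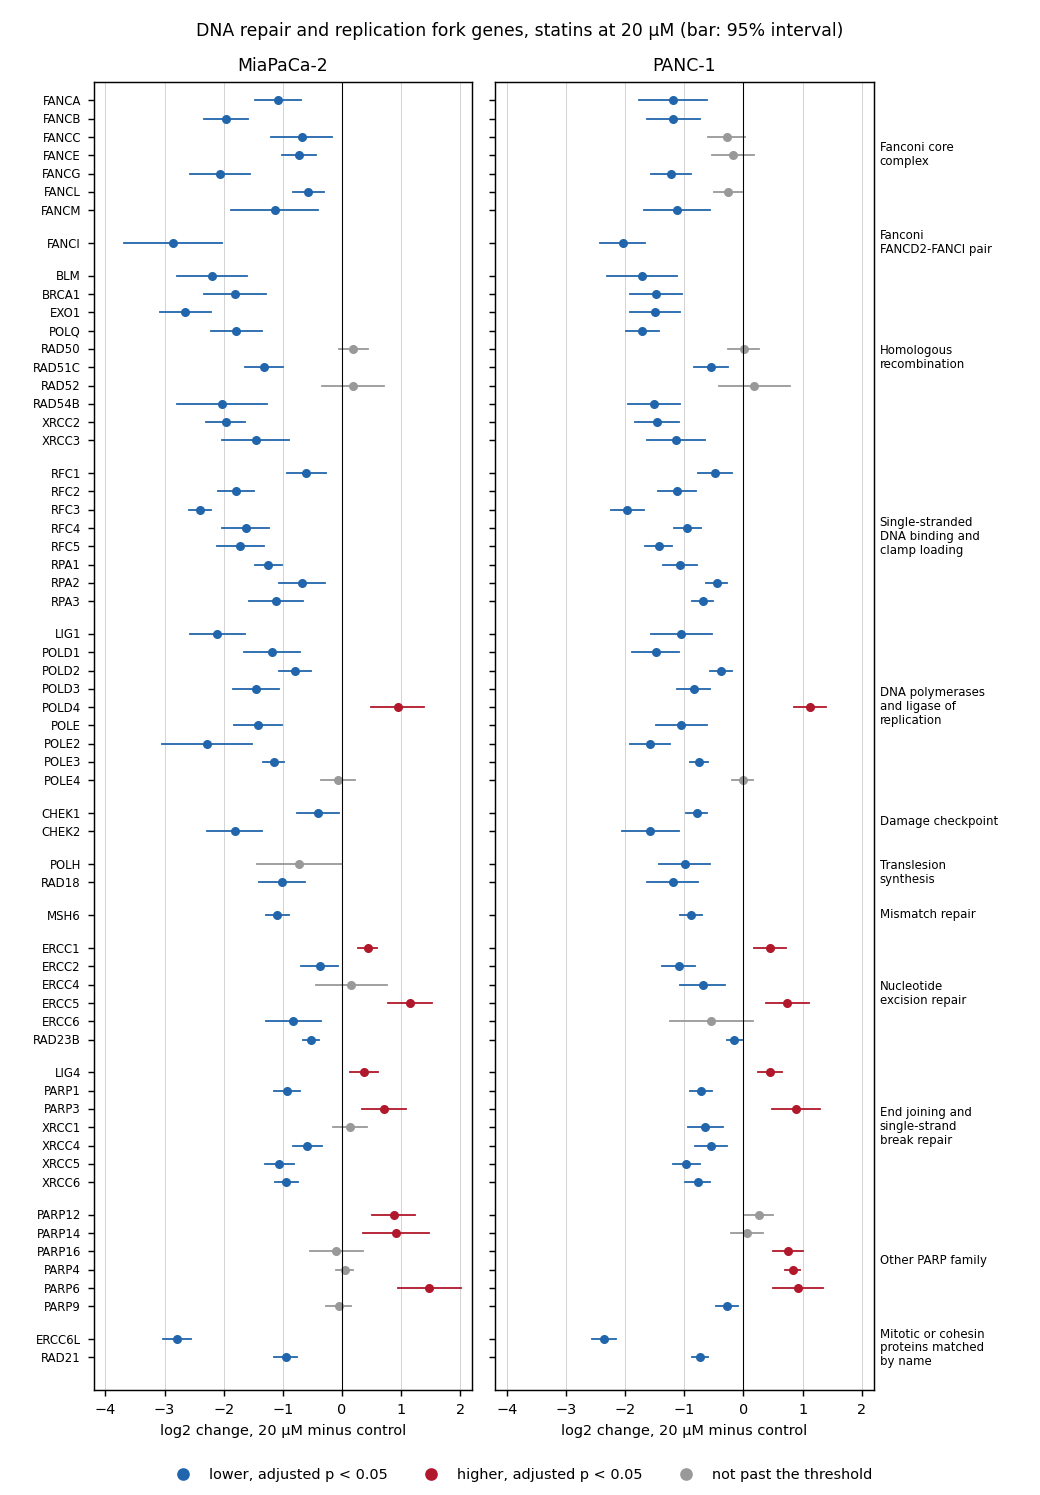
Log2 change of 61 of the 65 genes at 20 µM, averaged over the 3 statins, minus the control, with 95% intervals, by role and line. In each line 44 of the genes shown sit to the left of 0 and 8 to the right past the threshold; the Fanconi, recombination, clamp loader and replicative polymerase genes fill the left side, and PARP6, ERCC5, PARP3 and POLD4 stand on the right.

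Taken one at a time, the statins called similar numbers of genes. In MiaPaCa-2, 44 genes were lower and 8 higher with fluvastatin, where 32.5% of all genes were called lower and 32.9% higher, 65.4% in all. With lovastatin 42 were lower and 7 higher (30.1% and 28.8%, 58.9% in all), and with simvastatin 44 were lower and 9 higher (33.1% and 32.2%, 65.3% in all). In PANC-1, 46 were lower and 8 higher with fluvastatin (31% and 32.5% of all genes, 63.4% in all). With lovastatin 40 were lower and 9 higher (22.4% and 23.9%, 46.3% in all), and with simvastatin 39 were lower and 9 higher (30.2% and 29.4%, 59.5% in all). The 3 statins of a line share its control libraries, so their counts are not independent. Genes lowered by every statin numbered 38 in MiaPaCa-2, or 58.5% of the 65 genes, against 21.1% of all genes. In PANC-1 there were 32, or 49.2%, against 14.9% of all genes. There were 28 genes lowered by every statin in both lines, or 43.1% of the 65, against 10% of all genes. Only ERCC5, PARP3 and PARP6 were raised by every statin in both lines, 4.62% of the 65 genes against 7.32% of all genes, and 0 genes went opposite ways in the lines with every statin. RAD52 was among the genes called with none of the statins at 20 µM in either line.

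Markers of dividing cells moved with these genes. The markers were chosen with earlier results of these data known. All 14 proliferation markers examined (MKI67, TOP2A, PCNA, MCM2 to MCM7, CCNA2, CCNB1, CCNE2, E2F1 and E2F2) fell at 20 µM in both lines, with a median log2 change of -2.50 in MiaPaCa-2 and -1.84 in PANC-1. Their summed level was 325 to 481 FPKM in MiaPaCa-2 libraries at 20 µM, against 2120 to 2190 FPKM in control libraries. In PANC-1 it was 184 to 591 FPKM at 20 µM, against 1480 to 1540 FPKM in controls. The part of a change in the share of dividing cells in the results here was not tested.

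The deepest falls averaged over the lines were those of ERCC6L, FANCI, RFC3 and EXO1. In PANC-1 alone EXO1 (-1.49) fell less than several others, such as BLM (-1.71). ERCC6L encodes PICH, a DNA translocase that binds the fine DNA bridges between chromosomes in mitosis. It had 1.07, 1.35 and 0.939 FPKM with fluvastatin, 1.53 and 2.11 FPKM with lovastatin, and 3.28, 2.87 and 3.04 FPKM with simvastatin at 20 µM, against 19.3 and 18.8 FPKM in MiaPaCa-2 controls. PANC-1 libraries had 0.331, 0.329 and 0.619 FPKM with fluvastatin, 5.07, 5.01 and 4.79 FPKM with lovastatin, and 3.02, 3.76 and 2.37 FPKM with simvastatin, against 15.8, 15.9 and 15.0 FPKM in controls. Every treated library lay below every control. The mean log2 change was -2.80 (SE 0.11, adjusted p = 2.3e-12) in MiaPaCa-2 and -2.36 (SE 0.095, adjusted p = 3e-13) in PANC-1. RAD21, a subunit of the cohesin ring that was likewise matched by its name, changed less, by -0.95 in MiaPaCa-2 and by -0.73 in PANC-1.

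The upstream bases of 5 genes are printed to show what the promoters of the strongest responders hold. RefSeq windows on GRCh38.p14 were at hand for 53 of the 65 genes, and those without one included FANCI, RAD54B, RPA2, RPA3, POLD3, XRCC5, PARP4 and RAD21. Shown are the 250 bases before the annotated start of 4 genes. They had the largest mean fall among the genes with a window that every statin lowered in both lines. FANCI, which fell further than RFC3, EXO1 and BLM, could not be shown. The same bases are shown for PARP6, the gene with the largest mean rise among those raised by every statin in both lines. The windows are chrX:72239028-72239277 on the minus strand (ERCC6L), chr13:33817899-33818148 on the plus strand (RFC3), chr1:241847954-241848203 on the plus strand (EXO1), chr15:90717096-90717345 on the plus strand (BLM) and chr15:72272555-72272804 on the minus strand (PARP6). They are written 5′ to 3′ along the gene. Capitals mark any match, on either strand, to the E2F core, to the cell cycle element known as CHR, spelled TTTGAA, or to the CCAAT box. The E2F core was searched in the form TTCCCGC, in a second form with the letters TTGGCGC, in another form with the letters TTCGCGC, and in a last form with the letters TTGCCGC.
ERCC6L: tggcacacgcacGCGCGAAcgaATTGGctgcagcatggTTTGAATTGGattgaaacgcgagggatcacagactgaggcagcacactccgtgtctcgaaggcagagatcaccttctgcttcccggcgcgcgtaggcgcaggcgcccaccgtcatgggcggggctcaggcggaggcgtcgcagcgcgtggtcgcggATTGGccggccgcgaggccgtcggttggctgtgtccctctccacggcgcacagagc
RFC3: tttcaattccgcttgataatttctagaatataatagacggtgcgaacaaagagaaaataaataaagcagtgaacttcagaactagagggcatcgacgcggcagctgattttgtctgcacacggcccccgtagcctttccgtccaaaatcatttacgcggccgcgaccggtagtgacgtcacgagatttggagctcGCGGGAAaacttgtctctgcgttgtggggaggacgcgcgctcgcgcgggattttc
EXO1: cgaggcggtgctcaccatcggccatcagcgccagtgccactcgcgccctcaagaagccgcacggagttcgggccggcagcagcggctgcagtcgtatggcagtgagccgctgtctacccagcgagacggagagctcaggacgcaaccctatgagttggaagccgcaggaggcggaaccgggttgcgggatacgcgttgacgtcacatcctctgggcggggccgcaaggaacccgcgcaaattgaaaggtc
BLM: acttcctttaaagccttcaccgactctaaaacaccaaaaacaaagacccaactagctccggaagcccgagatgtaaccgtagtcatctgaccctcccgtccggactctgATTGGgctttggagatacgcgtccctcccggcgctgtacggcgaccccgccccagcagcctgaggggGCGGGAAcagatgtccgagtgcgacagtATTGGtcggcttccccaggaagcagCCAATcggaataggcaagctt
PARP6: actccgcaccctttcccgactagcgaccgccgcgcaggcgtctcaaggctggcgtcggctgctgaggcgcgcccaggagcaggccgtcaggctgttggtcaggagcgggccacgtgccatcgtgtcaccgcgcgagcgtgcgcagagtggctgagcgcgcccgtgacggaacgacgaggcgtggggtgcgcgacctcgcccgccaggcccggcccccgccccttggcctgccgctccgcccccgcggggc

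ERCC6L held 1 E2F form, 1 CHR and 3 CCAAT boxes, and the CHR and a CCAAT box share 1 base. RFC3 held 1 E2F form and BLM held 1 E2F form with 3 CCAAT boxes, while EXO1 and PARP6 held none of the letters searched. An E2F form was present in 17 of the 53 windows, or 32.1%, against 11% of 27305 RefSeq windows. Those 27305 windows are not limited to the 8738 genes of the expression table, so the sets compared are unlike. It was present in 7 of the 21 windows of genes lowered by every statin in both lines, or 33.3%, and in 10 of the 32 windows of the other members, or 31.2%. The shares for CHR were 7.55% of members and 13.6% of all windows, and those for CCAAT were 35.8% and 33%. A match describes these letters only.

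FANCI pairs with FANCD2 and is loaded onto DNA at crosslinks. In MiaPaCa-2 it had 2.45, 14.9 and 4.00 FPKM with fluvastatin, 13.6 and 8.03 FPKM with lovastatin, and 9.95, 4.61 and 6.63 FPKM with simvastatin at 20 µM, against 65.2 and 54.6 FPKM in controls. Its PANC-1 libraries had 10.4, 11.8 and 9.40 FPKM with fluvastatin, 15.1, 28.9 and 15.8 FPKM with lovastatin, and 15.3, 8.56 and 13.7 FPKM with simvastatin, against 45.1, 63.2 and 70.2 FPKM in controls. Replicates of a statin differed several-fold in places, and still no treated library reached a control. The mean log2 change was -2.86 (SE 0.391, adjusted p = 8.4e-06) in MiaPaCa-2 and -2.04 (SE 0.18, adjusted p = 2.2e-08) in PANC-1.

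The Fanconi core complex adds ubiquitin to FANCI and FANCD2. On the mean of the statins all 7 of its measured genes fell in MiaPaCa-2, from -0.57 for FANCL, the ubiquitin ligase, to -2.06 for FANCG. In that line 33.7% of all genes were called lower. Taken singly, FANCC and FANCL were not called there with lovastatin, FANCE not with simvastatin and FANCM not with fluvastatin. In PANC-1, where 31.1% of all genes were called lower, 4 of the 7 fell on the mean (FANCA, FANCB, FANCG and FANCM). FANCA was not called there with simvastatin. FANCC, FANCE and FANCL did not pass the threshold on the mean, at -0.28, -0.18 and -0.26, but were called lower with fluvastatin. FANCG had 3.90, 5.55 and 6.93 FPKM with fluvastatin, 8.996 and 4.37 FPKM with lovastatin, and 7.52, 12.0 and 8.82 FPKM with simvastatin, against 31.2 and 32.2 FPKM in MiaPaCa-2 controls. The gene had, in PANC-1, 13.01, 11.9 and 14.6 FPKM with fluvastatin, 19.6, 17.8 and 28.8 FPKM with lovastatin, and 31.2, 18.6 and 18.9 FPKM with simvastatin, against 48.5, 45.0 and 40.3 FPKM in controls. Its log2 change was -2.06 (SE 0.236, adjusted p = 1.2e-06) in MiaPaCa-2 and -1.22 in PANC-1. The groups did not overlap in either line. FANCB fell by 1.96 (SE 0.177, adjusted p = 7.5e-08) in MiaPaCa-2, where its libraries had 1.09 to 3.13 FPKM at 20 µM, against 9.26 and 10.8 FPKM in controls. In PANC-1 FANCB had only 0.0532 to 1.41 FPKM at 20 µM, against 1.92 to 2.58 FPKM in controls, so its changes there depend on the added pseudocount. The change of FANCM, the translocase of the complex, was -1.14 in MiaPaCa-2 and -1.12 in PANC-1. Replicates were wide apart for FANCC and FANCM in MiaPaCa-2. FANCM had 1.01 and 3.67 FPKM with lovastatin, and 3.70, 1.05 and 2.01 FPKM with simvastatin, against 8.05 and 4.87 FPKM in controls. FANCC had 5.84 and 15.6 FPKM in the lovastatin libraries, 3.73 to 4.54 FPKM with fluvastatin and 4.10 to 4.33 FPKM with simvastatin, against 10.5 and 8.63 FPKM in controls.

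Homologous recombination copies an intact sister strand to mend a break. Of the 11 measured genes grouped under it, which include POLQ of theta-mediated end joining, 9 fell in each line, with a median log2 change of -1.79 in MiaPaCa-2 and -1.46 in PANC-1. Over all genes 33.7% were called lower in MiaPaCa-2 and 31.1% in PANC-1. The recombination genes called in neither line on the mean were RAD50, a subunit of the complex that first binds broken ends, and RAD52. The values of RAD50 were 0.19 in MiaPaCa-2 and 0.002 in PANC-1, while those of RAD52 were 0.19 and 0.18. EXO1, the nuclease that resects break ends, fell most in MiaPaCa-2. It had 4.06, 2.16 and 1.45 FPKM with fluvastatin, 3.01 and 3.76 FPKM with lovastatin, and 7.20, 8.43 and 6.67 FPKM with simvastatin, against 31.3 and 29.4 FPKM in controls (log2 change -2.65, SE 0.202, adjusted p = 9e-09). PANC-1 libraries had 0.345, 1.14 and 1.53 FPKM with fluvastatin, 7.20, 6.46 and 8.12 FPKM with lovastatin, and 7.74, 6.13 and 11.2 FPKM with simvastatin, against 12.7, 12.4 and 16.7 FPKM in controls (log2 change -1.49, SE 0.2, adjusted p = 4.5e-06). The fluvastatin libraries of PANC-1 stood far below those of the other statins.

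BLM, the helicase mutated in Bloom syndrome, had 0.556 to 3.07 FPKM in the MiaPaCa-2 libraries at 20 µM (median 1.29), against 7.56 and 12.0 FPKM in controls. In PANC-1 the gene had 1.00 to 8.47 FPKM at 20 µM (median 3.24), against 20.1, 12.5 and 9.11 FPKM in controls. The groups did not overlap, although the highest treated PANC-1 library came close to the lowest control. Its log2 change was -2.20 (SE 0.281, adjusted p = 4.1e-06) in MiaPaCa-2 and -1.71 (SE 0.283, adjusted p = 4.6e-05) in PANC-1. BRCA1, which promotes resection and strand exchange, had 2.88 to 12.3 FPKM in MiaPaCa-2 at 20 µM, against 19.7 and 25.0 FPKM in controls. In PANC-1 BRCA1 had 3.39 to 13.5 FPKM at 20 µM, against 22.0, 15.0 and 17.7 FPKM in controls (log2 change -1.48, SE 0.211, adjusted p = 9.3e-06). POLQ, a polymerase that joins broken ends through short matching stretches, had 0.094 to 1.38 FPKM in PANC-1 at 20 µM, against 3.73, 4.77 and 4.84 FPKM in controls (log2 change -1.71, SE 0.132, adjusted p = 3e-09).

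Of the strand exchange factors, XRCC2 changed by -1.97 (SE 0.157, adjusted p = 1.6e-08) in MiaPaCa-2 and by -1.46 (SE 0.176, adjusted p = 1.2e-06) in PANC-1. XRCC2 had 0.0217 to 2.24 FPKM in PANC-1 at 20 µM, lowest with fluvastatin, against 3.22 to 3.48 FPKM in controls. In MiaPaCa-2 it had 0.440 to 1.71 FPKM at 20 µM, so the size of both changes depends on the added pseudocount. RAD54B, a translocase that aids strand exchange, changed by -2.02 (SE 0.357, adjusted p = 0.00011) in MiaPaCa-2 and by -1.51 (SE 0.21, adjusted p = 6.7e-06) in PANC-1. RAD51C and XRCC3, which act in the same step, changed by -1.32 and -1.46 in MiaPaCa-2 and by -0.55 and -1.13 in PANC-1.

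**Figure D2:**
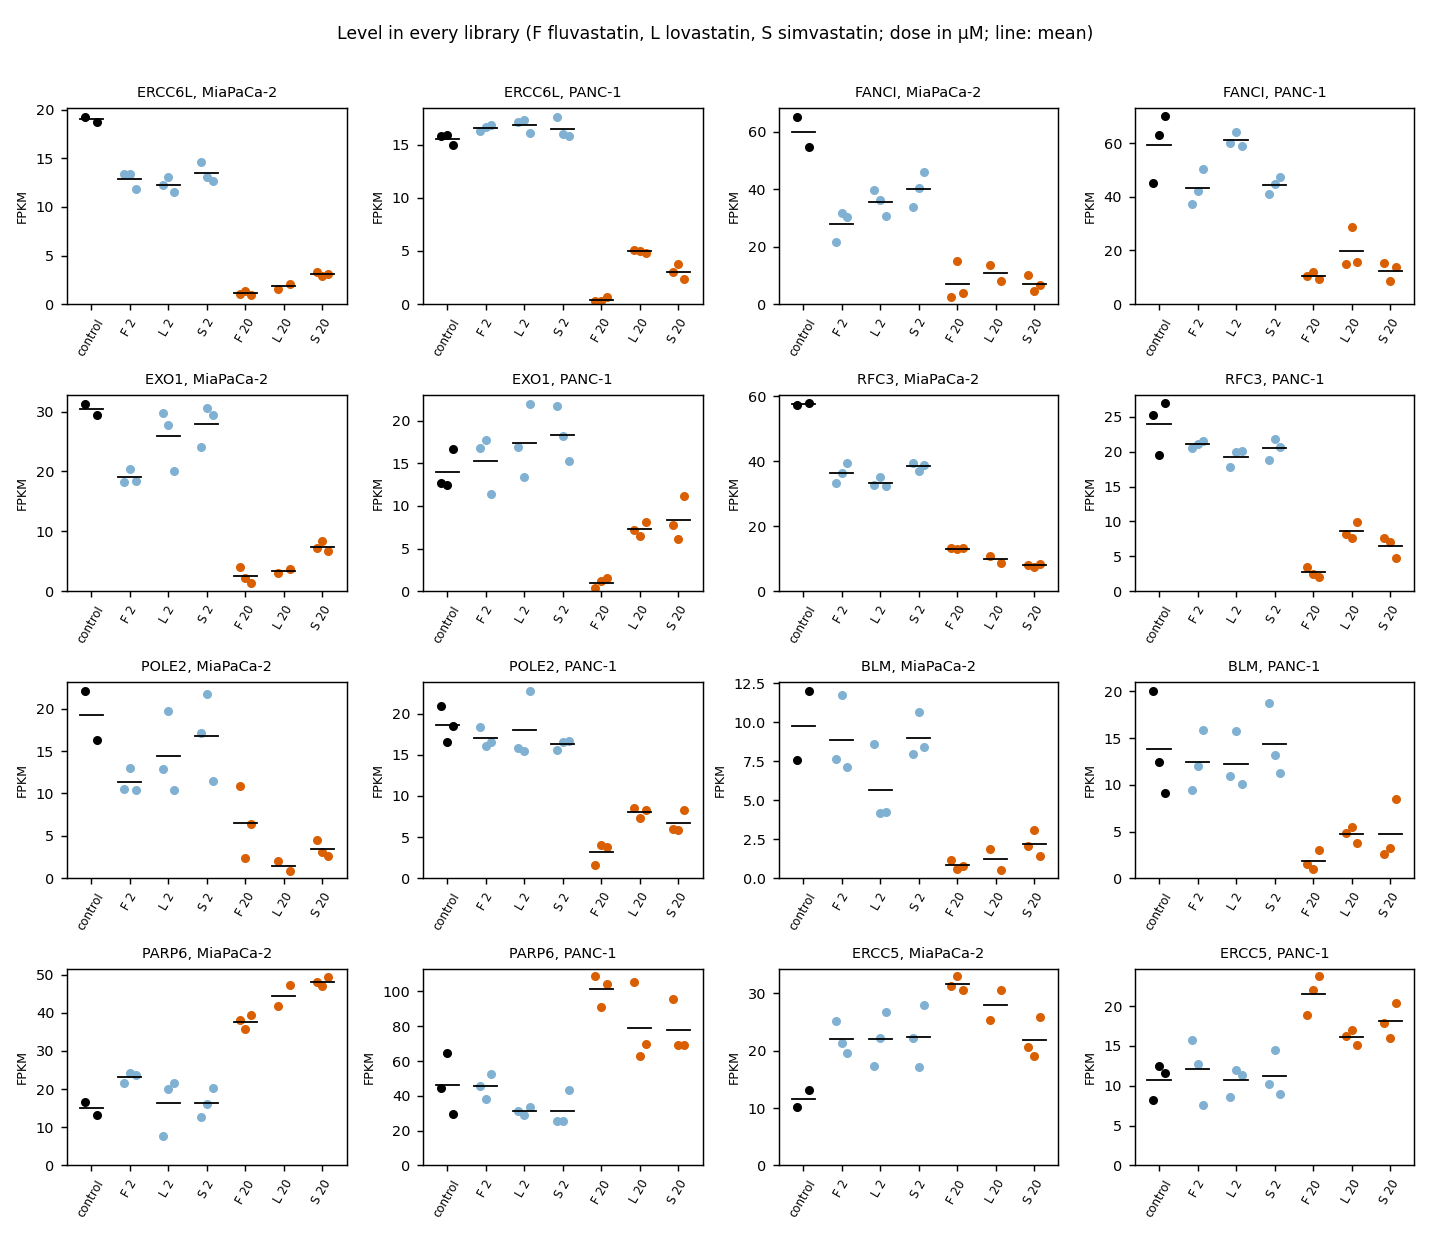
FPKM of 8 genes in every library used, by line, in the control, at 2 µM and at 20 µM of fluvastatin (F), lovastatin (L) and simvastatin (S); horizontal lines are group means. The 20 µM libraries of ERCC6L, FANCI, EXO1, RFC3, POLE2 and BLM lie below all controls of their line, and those of ERCC5 lie above them; the 2 µM libraries of ERCC6L fall between in MiaPaCa-2 and among or above the controls in PANC-1.

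All 8 genes of single-strand binding and clamp loading fell in both lines on the mean of the statins. The median change was -1.44 in MiaPaCa-2 and -1.01 in PANC-1. Of all genes, 33.7% were called lower in MiaPaCa-2 and 31.1% in PANC-1. RFC1 was not called with fluvastatin in MiaPaCa-2 or with lovastatin in PANC-1, nor RPA2 with simvastatin in PANC-1. RFC3, a small subunit of the clamp loader, had 13.2, 12.9 and 13.3 FPKM with fluvastatin, 10.98 and 8.80 FPKM with lovastatin, and 8.09, 7.37 and 8.43 FPKM with simvastatin, against 57.5 and 58.0 FPKM in MiaPaCa-2 controls. PANC-1 values were 3.53, 2.52 and 2.04 FPKM with fluvastatin, 8.22, 7.60 and 9.92 FPKM with lovastatin, and 7.56, 7.01 and 4.83 FPKM with simvastatin, against 25.3, 19.6 and 26.9 FPKM in controls. The order of the statins differed between the lines, with fluvastatin highest in MiaPaCa-2 and lowest in PANC-1. Its log2 change was -2.40 (SE 0.09, adjusted p = 1.3e-12) in MiaPaCa-2 and -1.96 (SE 0.131, adjusted p = 4.6e-10) in PANC-1. The other loader subunits RFC2, RFC4 and RFC5 changed by -1.80, -1.63 and -1.72 in MiaPaCa-2 and by -1.12, -0.95 and -1.43 in PANC-1, and the large subunit RFC1 by only -0.61 and -0.48. Of the RPA trimer, RPA1 changed by -1.25 and -1.07, RPA2 by -0.68 and -0.45, and RPA3 by -1.12 and -0.69, in MiaPaCa-2 and PANC-1 in that order.

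Of the 9 replicative polymerase subunits and ligase, 7 fell, 1 rose and 1 was not called in each line on the mean of the statins. The shares of all genes called were 33.7% lower and 34.1% higher in MiaPaCa-2, and 31.1% lower and 30.8% higher in PANC-1. POLE2, the second subunit of leading-strand polymerase epsilon, had 10.9, 2.35 and 6.37 FPKM with fluvastatin, 1.98 and 0.901 FPKM with lovastatin, and 4.57, 3.14 and 2.67 FPKM with simvastatin, against 22.1 and 16.3 FPKM in MiaPaCa-2 controls (log2 change -2.28, SE 0.355, adjusted p = 3.3e-05). In PANC-1 the gene had 1.67, 4.04 and 3.85 FPKM with fluvastatin, 8.58, 7.36 and 8.35 FPKM with lovastatin, and 6.02, 5.90 and 8.25 FPKM with simvastatin, against 20.9, 16.5 and 18.5 FPKM in controls (log2 change -1.58, SE 0.162, adjusted p = 1.5e-07). The catalytic subunits also fell, with POLE at -1.43 in MiaPaCa-2 and -1.05 in PANC-1. POLD1 stood at -1.18 in MiaPaCa-2 and -1.48 (SE 0.187, adjusted p = 2.1e-06) in PANC-1. LIG1, which joins Okazaki fragments, had 2.88 to 8.97 FPKM in MiaPaCa-2 at 20 µM, against 26.9 and 32.6 FPKM in controls (log2 change -2.11, SE 0.221, adjusted p = 4.3e-07). In PANC-1 LIG1 changed by -1.05.

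POLD4 and POLE4, the smallest subunits of polymerases delta and epsilon, behaved differently from their partners. POLD4 had 120, 96.0 and 105 FPKM with fluvastatin, 80.4, 81.6 and 80.1 FPKM with lovastatin, and 122, 103 and 132 FPKM with simvastatin, against 42.1, 54.2 and 41.6 FPKM in PANC-1 controls. Every treated PANC-1 library lay above every control (log2 change 1.13, SE 0.125, adjusted p = 4.4e-07). In MiaPaCa-2 POLD4 rose on the mean by 0.94 (SE 0.213, adjusted p = 0.0011). There it had 33.9 to 51.1 FPKM with lovastatin or simvastatin and 22.2, 29.2 and 25.6 FPKM with fluvastatin, against 15.0 and 23.1 FPKM in controls, so that 1 fluvastatin library lay under the higher control. On the mean POLE4 changed by -0.07 in MiaPaCa-2 and -0.01 in PANC-1, neither past the threshold. Taken singly in PANC-1, POLE4 was called lower with fluvastatin (105 to 136 FPKM) and higher with simvastatin (190 to 208 FPKM). PANC-1 controls had 135 to 166 FPKM.

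Checkpoint kinases signal damage and stalled forks. CHEK2, which acts downstream of ATM, had 7.29 to 25.8 FPKM in MiaPaCa-2 at 20 µM, against 50.1 and 50.5 FPKM in controls (log2 change -1.82, SE 0.219, adjusted p = 2.1e-06). PANC-1 libraries had 4.98 to 18.03 FPKM at 20 µM, against 32.7, 28.4 and 30.0 FPKM in controls (log2 change -1.58, SE 0.229, adjusted p = 1.1e-05). CHEK1, which acts downstream of ATR, changed less, by -0.41 in MiaPaCa-2 and by -0.79 in PANC-1. In MiaPaCa-2 it was called on the mean of the statins and with none of them singly. Of the translesion genes, RAD18, the ubiquitin ligase that acts on the clamp, changed by -1.01 in MiaPaCa-2 and -1.20 in PANC-1. POLH, the polymerase that passes ultraviolet damage, changed by -0.99 in PANC-1, and its -0.72 in MiaPaCa-2 did not pass the threshold.

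MSH6, which takes part in recognising mismatches, fell in both lines, with changes of -1.10 in MiaPaCa-2 and -0.89 in PANC-1.

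Of 7 nucleotide excision repair genes measured, 3 fell and 2 rose in each line on the mean of the statins. Such counts are near the shares of all genes, of which 33.7% were called lower and 34.1% higher in MiaPaCa-2, and 31.1% lower and 30.8% higher in PANC-1. ERCC5, which encodes the XPG nuclease, had 31.3, 33.1 and 30.6 FPKM with fluvastatin, 25.3 and 30.6 FPKM with lovastatin, and 20.6, 19.1 and 25.9 FPKM with simvastatin, against 10.1 and 13.2 FPKM in MiaPaCa-2 controls (log2 change 1.14, SE 0.175, adjusted p = 2.9e-05). Its PANC-1 libraries had 18.8, 22.1 and 23.8 FPKM with fluvastatin, 16.2, 17.1 and 15.1 FPKM with lovastatin, and 17.9, 16.0 and 20.4 FPKM with simvastatin, against 8.23, 12.5 and 11.54 FPKM in controls (log2 change 0.74, SE 0.175, adjusted p = 0.0013). All treated libraries lay above the controls in both lines. ERCC1, the partner of the XPF nuclease, rose by 0.43 in MiaPaCa-2 and 0.45 in PANC-1 on the mean, and its libraries overlapped the controls in both lines. ERCC2, the XPD helicase of TFIIH, changed by -0.38 in MiaPaCa-2 and by -1.09 in PANC-1, both past the threshold.

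In end joining and single-strand break repair, 4 of 7 genes fell and 2 rose in MiaPaCa-2, and 5 fell and 2 rose in PANC-1. Over all genes, 33.7% were called lower and 34.1% higher in MiaPaCa-2, and 31.1% lower and 30.8% higher in PANC-1. XRCC5 and XRCC6 encode the Ku80 and Ku70 subunits that clamp broken ends, and they were among the most abundant of the 65 genes. XRCC5 had 118 to 218 FPKM in MiaPaCa-2 at 20 µM, against 314 and 314 FPKM in controls, and 137 to 282 FPKM in PANC-1 at 20 µM, against 432, 362 and 344 FPKM in controls. The log2 change of XRCC5 was -1.06 in MiaPaCa-2 and -0.96 in PANC-1. That of XRCC6 was -0.94 and -0.78. PARP1, the main poly(ADP-ribose) polymerase of break signalling, changed by -0.93 in MiaPaCa-2 and -0.71 in PANC-1. LIG4, the ligase of end joining, rose on the mean by 0.37 in MiaPaCa-2 and by 0.45 in PANC-1, while its partner XRCC4 changed by -0.58 and -0.55.

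PARP3, which acts in end joining, rose in both lines. It had 23.5, 22.0 and 33.3 FPKM with fluvastatin, 39.7 and 29.8 FPKM with lovastatin, and 30.1, 32.6 and 30.9 FPKM with simvastatin, against 18.9 and 17.2 FPKM in MiaPaCa-2 controls (log2 change 0.71, SE 0.175, adjusted p = 0.0019). In PANC-1 the gene had 18.8, 22.1 and 27.5 FPKM with fluvastatin, 13.7, 14.3 and 22.7 FPKM with lovastatin, and 21.9, 20.4 and 22.4 FPKM with simvastatin, against 12.2, 7.70 and 11.8 FPKM in controls (log2 change 0.89, SE 0.193, adjusted p = 0.00069). XRCC1, the scaffold of single-strand break repair, stood on the mean at 0.13 in MiaPaCa-2, not called, and at -0.64 in PANC-1, where it fell. With fluvastatin alone XRCC1 was called higher in MiaPaCa-2 and was not called in PANC-1.

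Of the 6 remaining PARP genes, 3 rose and 0 fell in MiaPaCa-2, and 3 rose and 1 fell in PANC-1, on the mean. The 65 genes had 8 rises in each line. Over all genes 34.1% were called higher in MiaPaCa-2 and 30.8% in PANC-1. PARP6, a mono-ADP-ribosyltransferase, had 38.2, 35.6 and 39.3 FPKM with fluvastatin, 41.7 and 47.2 FPKM with lovastatin, and 48.2, 46.9 and 49.4 FPKM with simvastatin, against 16.7 and 13.3 FPKM in MiaPaCa-2 controls (log2 change 1.47, SE 0.251, adjusted p = 8.2e-05). PANC-1 libraries had 109, 90.9 and 104 FPKM with fluvastatin, 105, 62.9 and 69.6 FPKM with lovastatin, and 95.5, 69.3 and 69.5 FPKM with simvastatin, against 44.4, 64.8 and 29.8 FPKM in controls (log2 change 0.92, SE 0.203, adjusted p = 0.00073). The groups were apart in MiaPaCa-2, and 1 lovastatin library in PANC-1 lay under the highest control. PARP4, the vault PARP, had 43.9, 45.0 and 43.4 FPKM with fluvastatin, 34.9, 34.4 and 33.8 FPKM with lovastatin, and 25.6, 25.0 and 24.9 FPKM with simvastatin, against 18.02, 17.4 and 20.2 FPKM in PANC-1 controls (log2 change 0.83, SE 0.059, adjusted p = 9.2e-10). Its replicates were tight, and the 3 statins formed 3 separate levels. PARP16, a PARP of the endoplasmic reticulum, rose by 0.75 (SE 0.12, adjusted p = 3.1e-05) in PANC-1, with 7.79 to 12.5 FPKM at 20 µM, against 4.69 to 6.32 FPKM in controls. PARP12 and PARP14, interferon-responsive family members, rose in MiaPaCa-2 by 0.88 and 0.91, and PARP9 was called lower in PANC-1 at -0.28. Taken singly in MiaPaCa-2, PARP9 was called higher with fluvastatin and lower with simvastatin.

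Most of the other genes of repair and of the fork that were listed also fell. This list was drawn up with earlier results of these data known, so it is no independent check. Of 83 further genes listed, 51 were in the table, and at 20 µM 34 fell and 6 rose in MiaPaCa-2 and 37 fell and 4 rose in PANC-1, with medians of -0.67 and -0.77. Over all genes 33.7% were called lower in MiaPaCa-2 and 31.1% in PANC-1. RAD51AP1, which aids strand exchange, changed by -2.88 (adjusted p = 8.5e-09) in MiaPaCa-2 and -1.63 (adjusted p = 3.9e-07) in PANC-1. NEIL3, a DNA glycosylase, changed by -2.77 and -2.05, CLSPN, the adaptor that hands the signal to CHEK1, by -2.60 and -1.71, and RAD54L, a translocase of recombination, by -2.58 and -2.27. WDHD1, which tethers polymerase alpha at the fork, changed by -2.29 and -1.70, EME1, a subunit of a nuclease for joint molecules, by -2.16 and -1.97, and UBE2T, the ubiquitin carrier of the Fanconi core, by -2.01 and -1.73. DNA2, a nuclease and helicase, changed by -1.99 and -1.34. The rises included APLF, an end joining factor, at 0.59 (adjusted p = 0.004) in MiaPaCa-2 and 0.57 (adjusted p = 0.0016) in PANC-1. NEIL1, a DNA glycosylase, rose by 1.14 (adjusted p = 5.9e-05) in MiaPaCa-2 and stood at 0.08 in PANC-1, not called. ALKBH3, a demethylase of alkylated bases, rose by 0.68 (adjusted p = 0.0014) in PANC-1 and stood at 0.03 in MiaPaCa-2, not called.

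At 2 µM the lines differed in how many genes responded. In MiaPaCa-2, 16 of the 65 fell and 7 rose over the mean of the statins, where 27.1% of all genes were called lower and 23.9% higher, 51% in all. The share of the 65 genes called (35.4%) was below that of the table. With fluvastatin 14 fell and 4 rose (22.3% and 20.9% of all genes, 43.2% in all), with lovastatin 15 fell and 6 rose (23.5% and 21.9%, 45.5% in all), and with simvastatin 14 fell and 6 rose (23.8% and 21.7%, 45.5% in all). Without control replicate 1 the counts were 8, 11 and 10 genes, and 12 on the mean, and without control replicate 2 fluvastatin called 10, lovastatin 13 and the mean 15. In PANC-1, fluvastatin called 0 genes (3.95% of all genes), lovastatin 1, PARP14 (2.81%), and simvastatin 0 (3.97%) by limma, and at an unadjusted p under 0.05 the counts were 11, 4 and 6. The lovastatin count was 0 without lovastatin replicate 1 or 3 or control replicate 2, and the simvastatin count was 3 without simvastatin replicate 3. On the mean, PARP14 rose and ERCC2 fell, against 6.34% of all genes called. In MiaPaCa-2, 13 of the 14 proliferation markers fell at 2 µM (median -0.70), and their sum was 1180 to 1350 FPKM at 2 µM, against 2120 to 2190 FPKM in controls. In PANC-1, 0 of the 14 fell at 2 µM, MKI67 rose by 0.48, and the sum was 1420 to 1500 FPKM at 2 µM, against 1480 to 1540 FPKM in controls. The part of dividing cells in the difference between the lines was not tested.

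FANCE, which links the Fanconi core to FANCD2, showed the largest fall at 2 µM. It had 2.12, 2.14 and 1.67 FPKM with fluvastatin, 2.46, 1.66 and 1.60 FPKM with lovastatin, and 1.76, 1.78 and 2.47 FPKM with simvastatin at 2 µM, against 4.52 and 5.52 FPKM in MiaPaCa-2 controls (log2 change -1.03, SE 0.134, adjusted p = 1.2e-05). At 20 µM the change of FANCE was -0.73. FANCC changed by -0.79 (SE 0.24, adjusted p = 0.012) at 2 µM in MiaPaCa-2, and without control replicate 1 by -0.66 (adjusted p = 0.13). POLQ changed by -0.68 (SE 0.201, adjusted p = 0.01), with adjusted p = 0.068 and 0.076 without control replicate 1 or 2. RFC3 changed by -0.67 (SE 0.089, adjusted p = 1.4e-05), with 32.5 to 39.6 FPKM at 2 µM, against 57.5 and 58.0 FPKM in controls.

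At 2 µM the rises in MiaPaCa-2 were led by ERCC5 (0.86, SE 0.173, adjusted p = 0.00062), POLD4 (0.84, SE 0.21, adjusted p = 0.0034), PARP16 (0.82, SE 0.208, adjusted p = 0.0038) and PARP3 (0.70, SE 0.173, adjusted p = 0.0031). Without control replicate 1, POLD4 was at 0.55 (adjusted p = 0.13) and PARP16 at 0.76 (adjusted p = 0.053), and without control replicate 2 PARP3 was at 0.64 (adjusted p = 0.05). PARP16 had 5.84 to 10.5 FPKM at 2 µM, above the controls at 4.08 and 4.52 FPKM, and stood at -0.10 at 20 µM. In PANC-1, PARP14 had 13.02, 11.8 and 11.2 FPKM with fluvastatin, 14.8, 12.8 and 13.4 FPKM with lovastatin, and 15.8, 10.4 and 8.97 FPKM with simvastatin at 2 µM, against 8.29, 7.64 and 8.59 FPKM in controls (log2 change 0.54, SE 0.125, adjusted p = 0.013). Without PANC-1 control replicate 2 its adjusted p was 0.065. ERCC2 in PANC-1 changed by -0.47 (SE 0.131, adjusted p = 0.04), and its adjusted p ranged up to 0.19 without 1 library.

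Between the doses, 46 genes were lower and 9 higher at 20 µM than at 2 µM in MiaPaCa-2 (37.2% and 41.3% of all genes, 78.5% in all). In PANC-1 50 were lower and 8 higher (37.3% and 36.8% of all genes, 74.1% in all). This comparison uses no control library. The largest differences in MiaPaCa-2 were those of EXO1 (-2.31, SE 0.125), ERCC6L (-2.26, SE 0.068), LIG1 (-2.07, SE 0.137) and FANCI (-2.06, SE 0.242), with adjusted p from 2.6e-14 to 9.1e-07. In PANC-1 they were those of ERCC6L (-2.44, SE 0.067), FANCI (-1.78, SE 0.128), EXO1 (-1.75, SE 0.142) and RFC3 (-1.74, SE 0.093), with adjusted p from 4.6e-16 to 3.2e-09. The genes higher at 20 µM were led by PARP6 in both lines (1.23, SE 0.155, in MiaPaCa-2, and 1.25, SE 0.143, in PANC-1). PARP12, PARP14 and RAD52 followed in MiaPaCa-2 (1.09, 0.80 and 0.79), and PARP3, POLD4 and PARP4 in PANC-1 (1.18, 1.03 and 0.69).

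Lovastatin and simvastatin are lactones of one skeleton that differ by a methyl group on the ester side chain, and fluvastatin is a synthetic compound built on an indole ring. They were compared at matched doses in 12 pairwise contrasts. At 2 µM, 0 of the 65 genes was called in any of the 6 pairs, by limma, where 0% to 0.562% of all genes were called. The table-wide shares in MiaPaCa-2 were 0.316% lower and 0.246% higher for fluvastatin minus simvastatin, and 0.129% lower and 0.164% higher for simvastatin minus lovastatin. At an unadjusted p under 0.05, 3, 5 and 7 genes passed in MiaPaCa-2 and 7, 4 and 1 in PANC-1, for fluvastatin minus lovastatin, fluvastatin minus simvastatin and simvastatin minus lovastatin in that order. The intervals were not narrow for every gene. For EXO1 in PANC-1 at 2 µM, fluvastatin minus lovastatin was -0.17 with a 95% interval of -0.69 to 0.34, and for ERCC6L it was -0.02 with an interval of -0.26 to 0.22.

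**Figure D3:**
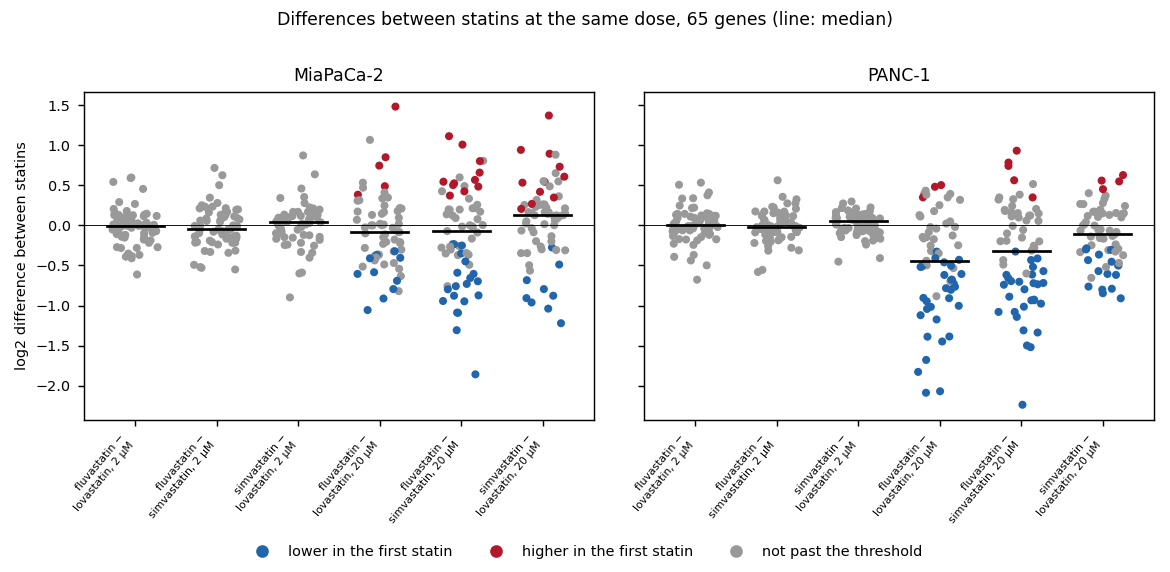
Log2 difference between 2 statins at the same dose for each of the 65 genes, by pair, dose and line; black lines are medians. At 2 µM all points are grey, and at 20 µM in PANC-1 30 genes lie lower with fluvastatin than with lovastatin and 29 lower than with simvastatin. Of all genes, 16.9% and 23.7% were called lower in those PANC-1 pairs.

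At 20 µM fluvastatin gave the lowest levels in PANC-1. There 30 genes were lower and 3 higher with fluvastatin than with lovastatin (16.9% and 13.8% of all genes, 30.7% in all). Against simvastatin 29 were lower and 5 higher with fluvastatin (23.7% and 23.9% of all genes, 47.5% in all). The median differences were -0.44 and -0.31, while those of all genes were 0.02 and -0.001. The recombination and clamp loading genes carried much of this, with 8 of 11 and 7 of 8 called lower in each of both pairs. EXO1 differed most, by -2.09 against lovastatin (SE 0.245, adjusted p = 3.5e-06) and by -2.24 against simvastatin (SE 0.245, adjusted p = 1.3e-06). ERCC6L differed by -2.07 (SE 0.116, adjusted p = 1.8e-10) and -1.50 (SE 0.116, adjusted p = 2.4e-08), and POLE by -1.68 (SE 0.248, adjusted p = 4.8e-05) and -1.52 (SE 0.248, adjusted p = 8.5e-05). RFC2 differed by -1.34 (SE 0.183, adjusted p = 1.4e-05) against simvastatin. In the other direction PARP4 was higher with fluvastatin by 0.35 (SE 0.072, adjusted p = 0.0011) against lovastatin and by 0.78 (SE 0.072, adjusted p = 1.6e-07) against simvastatin. The sum of the proliferation markers in PANC-1 was 184 to 199 FPKM with fluvastatin, 561 to 591 FPKM with lovastatin and 416 to 447 FPKM with simvastatin, and its part in these differences was not tested.

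Also higher with fluvastatin in PANC-1 were PARP14 (0.50 against lovastatin and 0.56 against simvastatin), POLH (0.93, adjusted p = 0.0058) and ERCC4 (0.74, adjusted p = 0.011) against simvastatin, and XRCC1 (0.48, adjusted p = 0.037) against lovastatin. The call of PARP14 against lovastatin was lost without fluvastatin replicate 1 or 2 or lovastatin replicate 3 (adjusted p = 0.051, 0.058 and 0.05). That of XRCC1 was lost without any of 5 libraries (adjusted p from 0.063 to 0.15), and that of ERCC4 without fluvastatin replicate 1 (adjusted p = 0.054).

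In MiaPaCa-2 the pairs had no common direction. Fluvastatin minus lovastatin had 10 genes lower and 5 higher (12.4% and 11.1% of all genes, 23.5% in all). Without lovastatin replicate 2 it had 5 called and without lovastatin replicate 1 it had 9. Fluvastatin minus simvastatin had 20 lower and 11 higher (28.4% and 27.8% of all genes, 56.2% in all). EXO1 (-1.31, SE 0.208, adjusted p = 6.2e-05) and BRCA1 (-1.09, SE 0.255, adjusted p = 0.0018) were lower with fluvastatin than with simvastatin. PARP9 (1.11, SE 0.106), RPA3 (1.01, SE 0.221), PARP1 (0.80, SE 0.103) and RFC3 (0.66, SE 0.093) were higher with fluvastatin, with adjusted p from 2.6e-07 to 0.0011. PARP9 was also higher with fluvastatin than with lovastatin (0.85, SE 0.119, adjusted p = 8.2e-05), at 11.6, 10.7 and 11.8 FPKM with fluvastatin, against 6.33 and 5.43 FPKM with lovastatin.

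Other named differences between fluvastatin and lovastatin in MiaPaCa-2 depended on single libraries. With fluvastatin, FANCC (-1.06), POLD4 (-0.91), CHEK2 (-0.79) and POLE (-0.69) were lower and POLE2 (1.48), RAD18 (0.75) and LIG4 (0.49) higher, and each lost its call without at least 1 of the lovastatin libraries, with adjusted p of 0.059 to 0.29. Without lovastatin replicate 2 the difference of FANCC was -0.42.

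Simvastatin and lovastatin, the pair that differs by the methyl group, differed at 20 µM in 20 genes in MiaPaCa-2 (9 lower and 11 higher with simvastatin, 37.3% of all genes called) and in 19 in PANC-1 (15 lower and 4 higher, 38.5%). Without lovastatin replicate 1 the MiaPaCa-2 count was 11. In MiaPaCa-2, CHEK2 (-1.22, SE 0.252, adjusted p = 0.0013) and FANCL (-0.91, SE 0.141, adjusted p = 0.00012) were lower with simvastatin, and RFC2 (0.89, SE 0.163, adjusted p = 0.00049) and RAD50 (0.73, SE 0.131, adjusted p = 0.00042) were higher. FANCC, POLD1 and EXO1 were also called there (-1.04, -0.96 and 0.94). FANCC and POLD1 lost the call without lovastatin replicate 2 (adjusted p = 0.25 and 0.19), and EXO1 without lovastatin replicate 1 (adjusted p = 0.052). In PANC-1, RFC1 was lower with simvastatin (-0.79, SE 0.168, adjusted p = 0.0015), with 21.6, 16.8 and 21.3 FPKM, against 38.6, 41.9 and 26.2 FPKM with lovastatin. POLE4 (0.56, SE 0.102, adjusted p = 0.00044) and POLD4 (0.55, SE 0.153, adjusted p = 0.0091) were higher with simvastatin. POLH (-0.91), BRCA1 (-0.85), RAD18 (-0.80), POLD1 (0.63) and XRCC4 (0.45) were called, and each lost its call without 1 or more libraries, with adjusted p of 0.054 to 0.18.

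The difference between the lines was tested as the MiaPaCa-2 change minus the PANC-1 change. For the mean of the statins at 20 µM, 16 genes had a lower and 5 a higher value in MiaPaCa-2 (37.6% of all genes called), and without MiaPaCa-2 control replicate 1 or 2 the calls numbered 10 and 12. With fluvastatin alone 4 were lower and 5 higher (34.2%), with lovastatin 25 lower and 3 higher (32.5%), and with simvastatin 17 lower and 7 higher (46.1%). EXO1 fell further in MiaPaCa-2 (difference -1.16, SE 0.3, adjusted p = 0.0029). The EXO1 difference was -0.27 (SE 0.354, adjusted p = 0.59) with fluvastatin, -1.99 (SE 0.373, adjusted p = 0.00012) with lovastatin and -1.20 (SE 0.354, adjusted p = 0.0066) with simvastatin. LIG1 (-1.06, SE 0.353, adjusted p = 0.018), FANCG (-0.84, SE 0.288, adjusted p = 0.021) and FANCB (-0.78, SE 0.288, adjusted p = 0.034) were called too, and each lost its call without MiaPaCa-2 control replicate 2, with adjusted p of 0.11, 0.084 and 0.16. With a pseudocount of 0.1 the FANCB difference was 0.05. PARP4 had the difference with the smallest p (-0.79, SE 0.081, adjusted p = 4.9e-09), with a mean change of 0.04 in MiaPaCa-2 and 0.83 in PANC-1. Taken singly in MiaPaCa-2, PARP4 was called lower with fluvastatin, higher with simvastatin and not with lovastatin. The PARP4 difference was -1.47 (SE 0.095, adjusted p = 2.5e-13) with fluvastatin and -0.10 (SE 0.095, adjusted p = 0.42) with simvastatin. PARP16 likewise differed by -0.85 (SE 0.236, adjusted p = 0.0051). XRCC1 (0.78, SE 0.201, adjusted p = 0.0028) and ERCC2 (0.72, SE 0.203, adjusted p = 0.0059) had the lower change in PANC-1, and without MiaPaCa-2 control replicate 1 ERCC2 had an adjusted p of 0.079. PARP14 (0.84, SE 0.281, adjusted p = 0.018) and PARP12 (0.61, SE 0.201, adjusted p = 0.017) had the higher change in MiaPaCa-2, and both missed the threshold without either MiaPaCa-2 control (adjusted p of 0.054 to 0.079). PARP12 also lost its call without PANC-1 control replicate 2 (adjusted p = 0.074). ERCC4, the XPF nuclease, was just past the threshold (0.84, SE 0.339, adjusted p = 0.049) and lost its call without MiaPaCa-2 control replicate 2 (0.62, adjusted p = 0.28) and under most other omissions of 1 library.

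**Figure D4:**
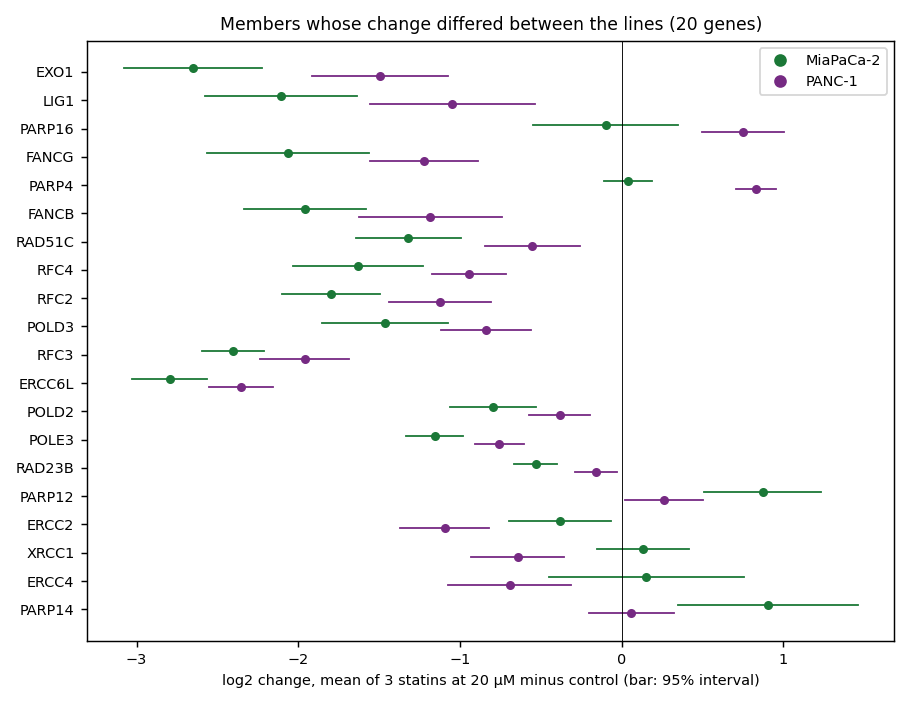
Log2 change at 20 µM (mean of the 3 statins minus control, with 95% intervals) in MiaPaCa-2 and PANC-1 for 20 of the 21 genes whose change differed between the lines, ordered by the difference. EXO1 and LIG1 lie furthest to the left in MiaPaCa-2 relative to PANC-1, PARP4 and PARP16 lie right of 0 in PANC-1 and near 0 in MiaPaCa-2, and ERCC2, XRCC1 and ERCC4 are lower in PANC-1.

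At 2 µM, 11 genes had a lower and 5 a higher change in MiaPaCa-2 than in PANC-1 on the mean (21.4% and 19.1% of all genes, 40.5% in all). The share of the 65 genes called was below that of all genes. Without MiaPaCa-2 control replicate 1 or 2 or PANC-1 control replicate 2 the calls numbered 6, 8 and 10. FANCE (-1.09, adjusted p = 0.00021) and ERCC6L (-0.62, adjusted p = 0.00052) were among the lower, and PARP3 (0.99, adjusted p = 0.005) among the higher.

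Before treatment the lines also differed. Untreated MiaPaCa-2 cells had 25 of the 65 genes higher and 12 lower than untreated PANC-1 cells (35.9% and 28.7% of all genes, 64.6% in all). The share of the 65 genes called was below that of all genes. The median difference was 0.28, while that of all genes was 0.11. FANCB (1.77, SE 0.254), RAD51C (1.34, SE 0.189), RFC3 (1.25, SE 0.148) and ERCC6 (1.41, SE 0.392), the last of which encodes the CSB protein of transcription-coupled repair, were higher in MiaPaCa-2, with adjusted p from 1.5e-08 to 0.0025. PARP6 (-1.50, SE 0.296), PARP12 (-1.27, SE 0.177) and POLD4 (-1.25, SE 0.218) were lower in MiaPaCa-2, with adjusted p from 2.8e-07 to 5.6e-05. The most abundant members were the same in both lines. XRCC6, XRCC5 and POLD2 averaged 333 ± 30.5, 314 ± 0.507 and 310 ± 34.2 FPKM in untreated MiaPaCa-2 cells (SD, n = 2), which are within each other's spread. In untreated PANC-1 cells they averaged 258 ± 23.9, 379 ± 46.1 and 262 ± 5 FPKM (SD, n = 3), with XRCC5 above the other two.

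Reads of some of these genes can be shared with neighbours, and the sources used here do not say whether counting used strand. In the GENCODE v29 annotation, 15 of the 65 genes shared at least 10% of their exon bases with another gene. They included RAD50 (90.6%), ERCC5 (64.4%, with the readthrough gene BIVM-ERCC5), RAD54B (63.3%, with FSBP), XRCC3 (45.3%, with KLC1 on the opposite strand), ERCC1 (36.6%, with CD3EAP on the opposite strand) and POLD4 (33.1%). There were 10 with named pseudogenes, among them CHEK2, RFC3, PARP4 and XRCC6. Their values are less certain for that reason.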

How the data were processed

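Poly-A RNA of 2 cell lines was sequenced in 42 libraries, 3 per group by the labels. The deposited table holds 8738 genes on a log2 scale, read here as log2(FPKM + 1) from its values (0.00424 to 12.77), since the labels name neither the base nor the added constant. Per the submitters' processing notes, the authors used TopHat2 2.0.13, Cufflinks 1.1 and Cuffdiff with hg19, and the step that scaled the table was not stated in them. In every column kept, at least 97.1% of the values recur in 5 or more columns, and the medians are 4.35 to 4.4, so a change in total mRNA cannot be seen.

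MiaPaCa-2 control replicate 3 and lovastatin 20 µM replicate 3 were weighted sums of other columns to within 4.99e-09 and were left out, which leaves 40 libraries (19 of MiaPaCa-2 and 21 of PANC-1). The unit gives no read counts. Genes with at least 1 FPKM in 3 libraries of the line were tested with limma 3.58.1 (R 4.3.3, statmod 1.5.0), with 1 mean per group, trend and robust variance, two-sided p-values and Benjamini-Hochberg adjustment at 0.05, after a check on simulated data. Tables and promoter letters were handled in Python 3.11.15 with pandas 2.3.3. Results were recomputed without the filter, with a pseudocount of 0.1, after quantile normalization or rescaling of FPKM to one sum, with the replicate number as a block, with all 42 columns, on the compared groups alone, and without each library in turn. RefSeq windows on GRCh38.p14 and the GENCODE v29 annotation served for names, sequences and overlaps, and no coordinate was mixed with hg19. The members and gene lists were chosen with earlier results of these data known. Genes named with full statistics were, per line, up to 12 largest decreases and 6 largest increases among those called with all 3 statins at 20 µM, up to 6 per direction for the difference between lines, and up to 4 per direction for other contrasts; genes named beside these are members given for their role. Some members are counted but not reported by name here.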

Additional observations from a re-analysis of the deposited data

Results flagged for a closer look

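For 11 of the genes described, the change at 20 µM on the mean of the statins differed between the lines by the test of that difference in limma (MiaPaCa-2 minus PANC-1, log2). EXO1 differed by -1.16, with changes of -2.65 in MiaPaCa-2 and -1.49 in PANC-1. With fluvastatin alone the EXO1 difference was -0.27 (adjusted p = 0.59), with lovastatin -1.99 and with simvastatin -1.20. LIG1 differed by -1.06 (-2.11 in MiaPaCa-2 and -1.05 in PANC-1), FANCG by -0.84 (-2.06 and -1.22) and FANCB by -0.78 (-1.96 and -1.18). The FANCB difference did not hold with a pseudocount of 0.1. PARP16 differed by -0.85 (-0.10 in MiaPaCa-2, 0.75 in PANC-1) and PARP4 by -0.79 (0.04 and 0.83). The PARP4 difference was -1.47 with fluvastatin alone and -0.10 (adjusted p = 0.42) with simvastatin alone.

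In the other direction, PARP14 differed by 0.84 (0.91 in MiaPaCa-2, 0.06 in PANC-1). PARP12 differed by 0.61 (0.88 in MiaPaCa-2, 0.26 in PANC-1). ERCC4 differed by 0.84 (0.15 in MiaPaCa-2 and -0.69 in PANC-1), XRCC1 by 0.78 (0.13 and -0.64), and ERCC2 by 0.72 (-0.38 and -1.09). EXO1, PARP16, PARP4 and XRCC1 kept the call under all alternatives run.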

How the results depend on the processing

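At 20 µM the number of the 65 genes called against the control on the mean of the statins was 49 to 55 in MiaPaCa-2 and 51 to 56 in PANC-1 when 1 library was left out, against 54 in each line with all of them. At 2 µM in MiaPaCa-2 leaving out 1 library gave 8 to 16 genes with fluvastatin (18 with all libraries), 11 to 22 with lovastatin (21), 10 to 19 with simvastatin (20) and 12 to 24 on the mean (23). In PANC-1 at 2 µM it gave 0 to 1 with lovastatin (1), 0 to 3 with simvastatin (0) and 1 to 2 on the mean (2). Fluvastatin minus lovastatin at 20 µM in MiaPaCa-2 had 5 to 14 (15), and simvastatin minus lovastatin 11 to 17 (20). The difference between the lines had 10 to 22 (21) on the mean at 20 µM, and at 2 µM 4 to 10 (9) with fluvastatin, 4 to 13 (10) with lovastatin, 5 to 11 (10) with simvastatin and 6 to 17 (16) on the mean. A fit on the compared groups alone, which has fewer samples, gave 5 for fluvastatin minus lovastatin and 10 for simvastatin minus lovastatin at 20 µM in MiaPaCa-2. It gave 8 for simvastatin minus lovastatin at 20 µM (19) and 0 for lovastatin at 2 µM in PANC-1, and 6 for the difference between the lines with simvastatin at 2 µM. With the replicate block, fluvastatin at 2 µM in PANC-1 called 1 gene against 0. Replicate numbers did not pair the samples, since deviations of same-numbered libraries had a median correlation of -0.00148 in MiaPaCa-2 and -0.00318 in PANC-1. Of the MiaPaCa-2 libraries 4 of 19, and of the PANC-1 libraries 8 of 21, correlated best with their own number. With all 42 columns, 25 genes were lower on the mean at 2 µM in MiaPaCa-2, against 16. With a pseudocount of 0.1 the FANCB difference between the lines was 0.052, against -0.78, so it depends on the pseudocount. In PANC-1 at 20 µM FANCB had only 0.0532 to 1.41 FPKM. Over single genes named, 2074 of the alternative values kept direction and call, 106 lost the call and 1 turned direction. Depth is unknown, so no counting error could be given.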
